A study of Triticum aestivum with 6 samples.

Results

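This report describes the core of abscisic acid (ABA) perception in wheat roots after a short nitrate supply: ABA receptors, the phosphatases they inhibit, the SnRK2 kinases those phosphatases hold off, and ABI5-like transcription factors. Members were chosen by the protein name of the UniProt entry that best matched each gene in the deposited table, an annotation that stands for similarity and not for a curated wheat name. The name had to be an ABA receptor, an SAPK or SRK2 kinase, an abscisic acid-insensitive protein, or a protein phosphatase 2C (PP2C) carrying a number of the rice clade A. This gave 94 of 83219 genes, made up of 16 receptors, 33 phosphatases, 29 kinases and 16 ABI5-like factors. The rule reads names and uses no expression value.

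In flowering plants, a PYR/PYL/RCAR receptor that has bound ABA docks onto a clade A phosphatase and blocks it. Freed SnRK2 kinases then phosphorylate bZIP factors of the ABF and ABI5 group, which bind ABA-responsive promoter elements, and ion channels. In Arabidopsis, ABA itself is known to raise transcripts of clade A phosphatases and to lower those of several receptors, so that the pathway feeds back on its own parts.

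The 2N and 0N groups are each 3 root libraries of wild-type bread wheat (Triticum aestivum, JW1). All seedlings germinated for 3 days, lost their endosperm, spent 3 days with 2 mM nitrate and then 2 days without nitrogen. For the last 3 hours, 2N seedlings had 2 mM of the potassium nitrate salt (written KNO in the labels) and 0N seedlings had 2 mM KCl, and since chloride was added where nitrate was not, the 2 ions cannot be told apart as the source of a difference. No ABA was given to either group according to the labels, which do not say whether replicates are separate cultures, which means that p-values reflect the spread between libraries alone, and that spread may be technical. Totals were 17234970 to 17645686 counts in 2N and 16208512 to 16426366 counts in 0N. Spearman correlations of log2 CPM (counts scaled by library totals after TMM adjustment) were 0.980 to 0.986 within and 0.951 to 0.960 between groups.

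The tissue label is root, while a further label names leaf tissue. Genes of 2 root proteins, Casparian strip membrane and cortical cell-delineating proteins, summed to 19462, 23034 and 19445 TPM (the deposited length-scaled expression unit) in 2N and 13973, 17924 and 17909 TPM in 0N. Photosynthesis genes that mark leaves (small Rubisco subunits, chlorophyll a-b binding and oxygen-evolving enhancer proteins) summed to 130, 238 and 184 TPM in 2N and 345, 236 and 529 TPM in 0N, with 17 of 95 genes at 0 in every library. Of the tested genes in these lists, 14 of 39 root markers rose and 1 fell, while 0 of 53 leaf markers rose and 20 fell. Their part in the results below was not tested.

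With nitrate, transcripts of the receptors were higher and those of the phosphatases lower, while most kinases and ABI5-like factors did not pass the test. By edgeR's quasi-likelihood test, 7 receptors rose and 0 fell, 0 phosphatases rose and 10 fell, 0 kinases rose and 3 fell, and 0 ABI5-like factors rose and 1 fell (adjusted p under 0.05). Over all 54313 tested genes, 7.57% rose and 7.93% fell (4109 and 4306 genes, or 2920 and 6208 when scaled by library totals), so falls among the phosphatases (10 of 33 members, 14 of which had too few counts to be tested) and rises among the receptors (7 of 16 members, 1 not tested) were more frequent than in the background, while 3 of 29 kinases (3 not tested) and 1 of 16 ABI5-like factors (1 not tested) fell. With DESeq2, 6 phosphatases and 3 kinases fell, against 6.31% of all tested genes. With library totals, 13 phosphatases, 8 kinases and 2 ABI5-like factors fell, against 11.4% of all tested genes. Without 0N replicate 1, 4 phosphatases and 2 ABI5-like factors fell, against 3082 of all 55276 tested genes. Without 2N replicate 1, 6 phosphatases and 0 ABI5-like factors fell, against 3345 of all 55487 tested genes. Without 2N replicate 3, 6 phosphatases fell, against 3128 of all 55512 tested genes. An unadjusted p under 0.05 was found in 9 of 15 tested receptors, 14 of 19 phosphatases, 11 of 26 kinases and 3 of 15 ABI5-like factors, against 27.8% of all tested genes. The median log2 fold change of tested members was 0.48 for receptors, -0.49 for phosphatases, -0.11 for kinases and -0.18 for ABI5-like factors, against 0.0024 for all tested genes. As these are bulk root libraries, fewer cells of a type and less RNA per cell cannot be told apart.

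**Figure D1:**
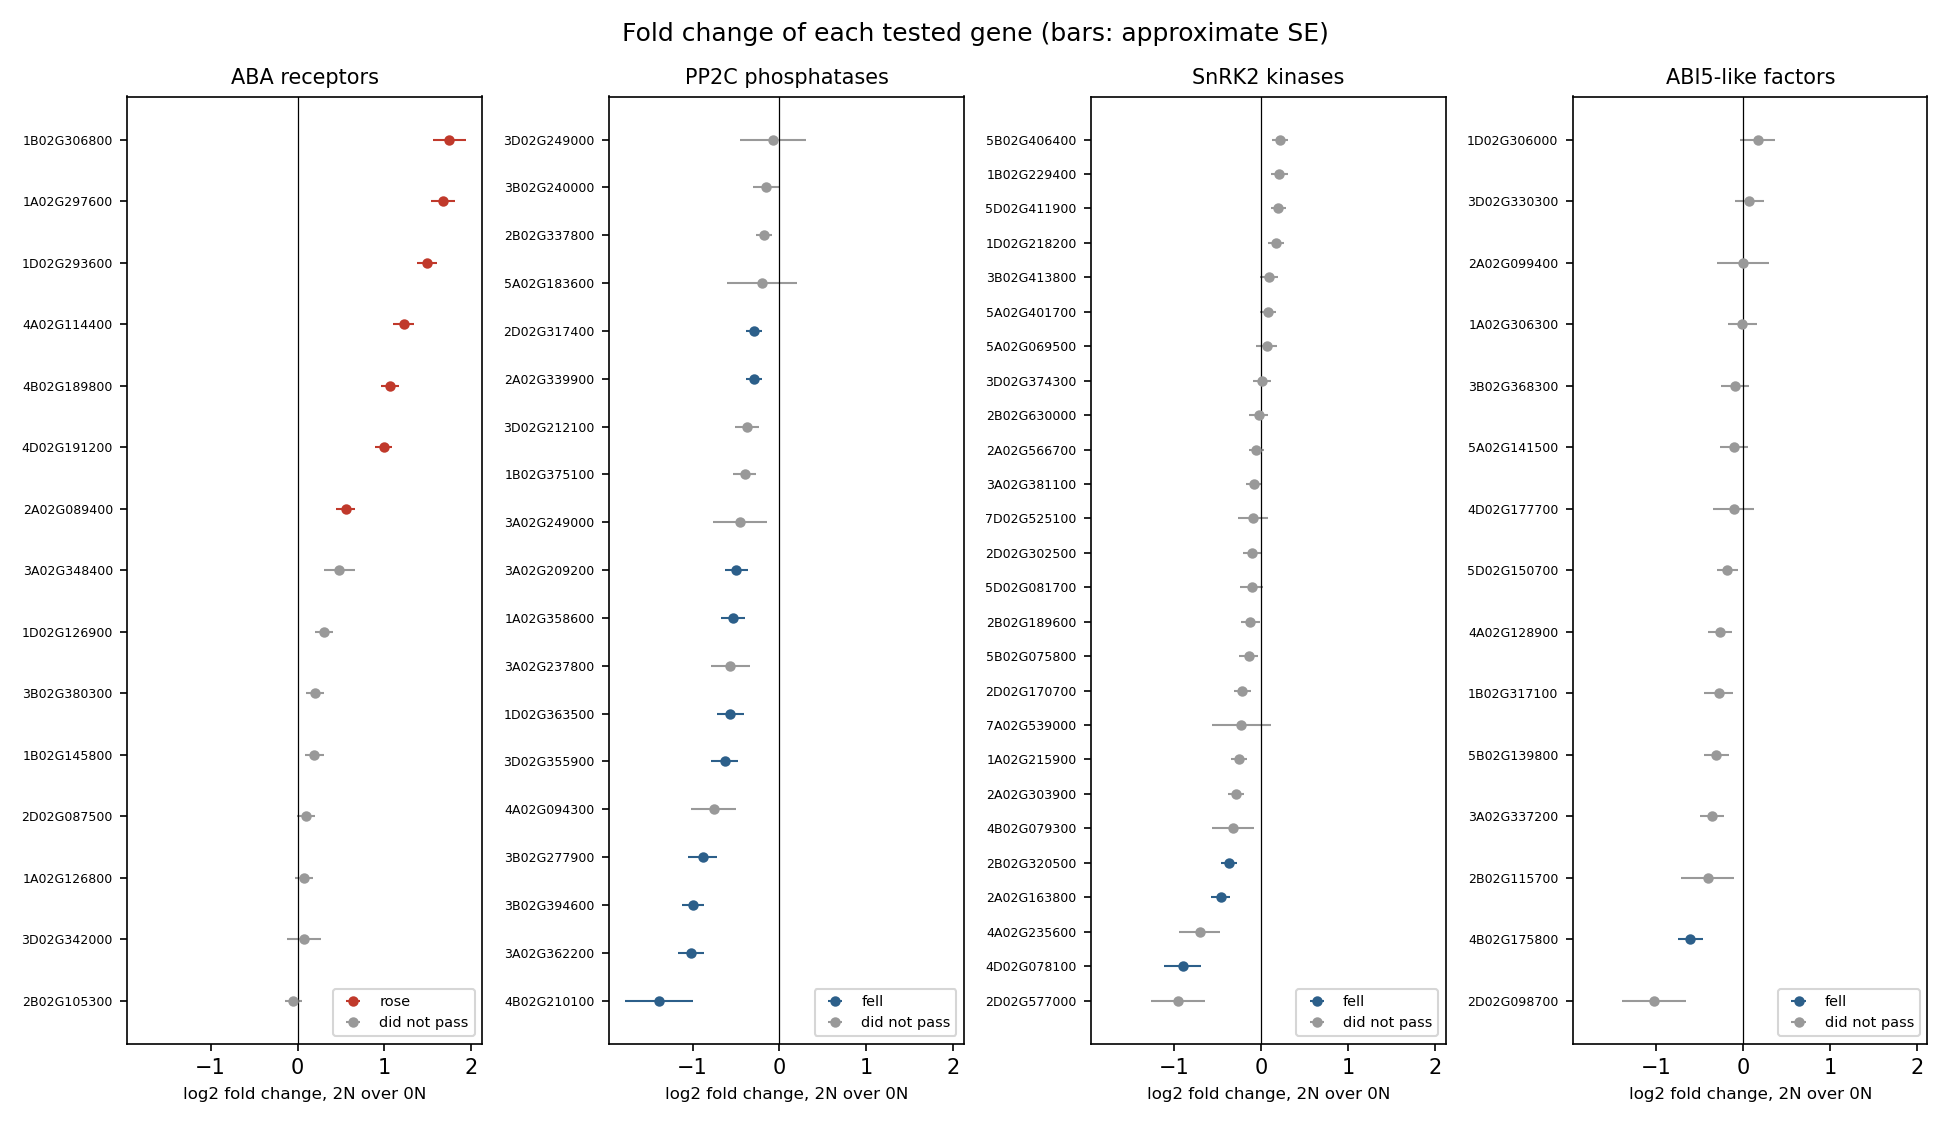
Log2 fold change (2N over 0N, x axis) of each of the 75 tested genes, 1 panel for each step of the pathway, with gene codes down the page without their common prefix. Points are edgeR estimates, bars their approximate standard errors, and colour shows genes that rose (red), fell (blue) or did not pass (grey). The 7 red points are all receptors, and all 19 tested phosphatases lie left of 0.

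Summed per library, the levels of the steps differed in the same directions. Receptors reached 882, 834 and 882 TPM in 2N, against 511, 545 and 561 TPM in 0N (means 866 ± 27.9 and 539 ± 25.4, SD, n = 3), a ratio of 1.61. Phosphatases stood at 93.9, 104 and 99.6 TPM in 2N and at 154, 134 and 143 TPM in 0N (99.2 ± 5.14 and 144 ± 10.2, SD, n = 3), a ratio of 0.691. The groups did not overlap in either sum, and 2N was high for receptors and low for phosphatases.

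Kinases summed to 479, 529 and 499 TPM in 2N and to 602, 549 and 558 TPM in 0N, which is 0.882 of the 0N level on the TPM scale and 0.943 of it in CPM. ABI5-like factors were the least abundant step, with 50.4, 61.1 and 56.2 TPM in 2N and 73.8, 61.4 and 71.2 TPM in 0N. In TPM the 2 groups lay apart in both of these sums, by under 1 TPM in the case of the ABI5-like factors. In CPM the groups overlapped in both. Kinases summed to 701 CPM in 2N replicate 2 and 690 CPM in 0N replicate 3. ABI5-like factors summed to 82.5 CPM in 2N replicate 2 and 81.2 CPM in 0N replicate 2.

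**Figure D2:**
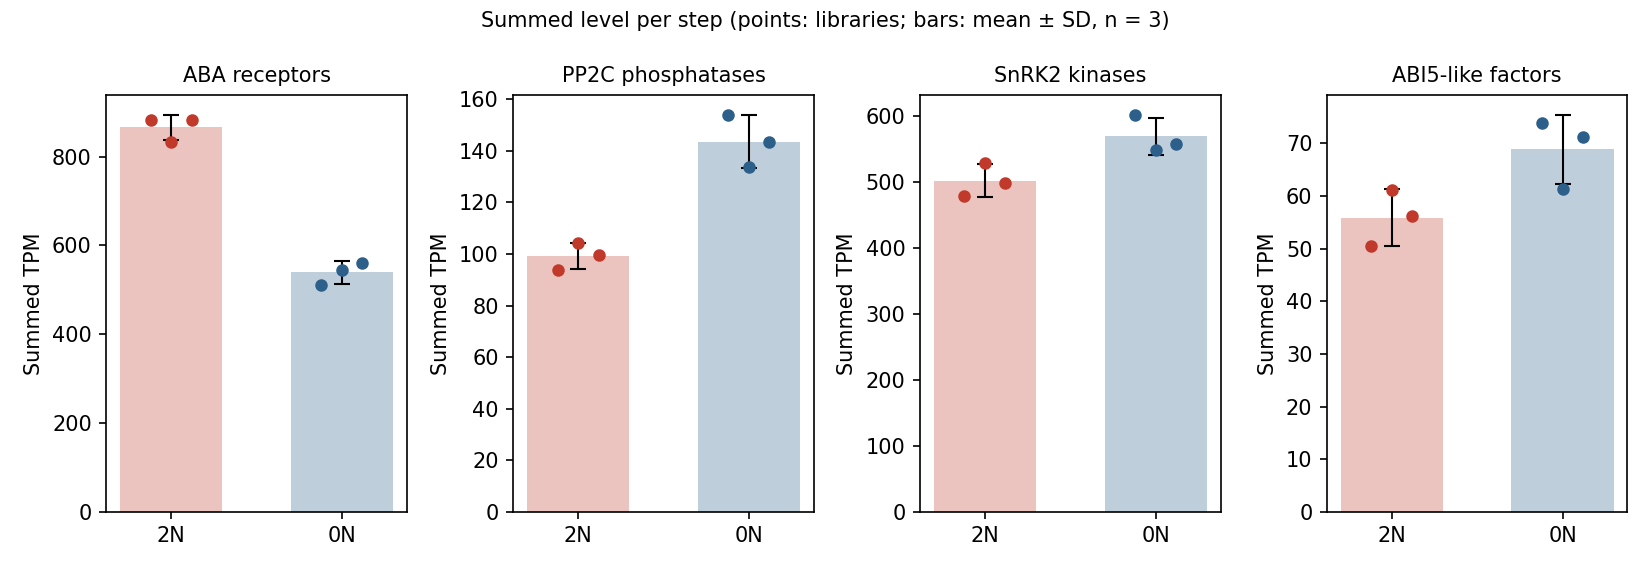
Summed TPM (y axis) of all members of each step, with 2N left of 0N. Points are libraries and bars the mean ± SD of 3 libraries. Receptors average 866 TPM in 2N and 539 TPM in 0N, and phosphatases 99.2 TPM in 2N and 144 TPM in 0N.

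Because the 2 steps went opposite ways, the receptor sum was 9.39, 8.00 and 8.85 times the phosphatase sum in the 2N libraries and 3.32, 4.08 and 3.92 times in the 0N libraries. The ratio of receptors to kinases was 1.84, 1.58 and 1.77 in 2N and 0.849, 0.993 and 1.01 in 0N. Every 2N library lay above every 0N library in both ratios. They compare transcript levels per length and say nothing of protein amounts.

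All 7 receptor genes that rose had Arabidopsis PYL4 as best match, and 11 of the 16 receptor genes did. The highest levels were in the copies on the chromosomes of group 4. TraesCS4A02G114400 had 174, 138 and 147 TPM in 2N, against 61.0, 73.3 and 76.8 TPM in 0N, a log2 fold change of 1.22 ± 0.12 (SE; adjusted p = 8.8e-06). TraesCS4B02G189800 had 164, 138 and 155 TPM in 2N and 72.2, 77.6 and 84.7 TPM in 0N (log2 fold change 1.06 ± 0.10, adjusted p = 7.1e-06). TraesCS4D02G191200 had 173, 156 and 167 TPM in 2N and 82.0, 92.1 and 92.1 TPM in 0N (log2 fold change 0.99 ± 0.10, adjusted p = 8.1e-06). In each of these 3 genes, every 2N library was well above every 0N library, and together they held 57.9%, 51.9% and 53.3% of all receptor TPM in 2N and 42.1%, 44.6% and 45.2% in 0N.

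Copies on group 1 chromosomes were lower in level and had the largest fold changes of the step. TraesCS1B02G306800 had 32.0, 35.3 and 40.7 TPM in 2N and 7.83, 14.3 and 12.1 TPM in 0N (log2 fold change 1.74 ± 0.19, adjusted p = 5.0e-05). TraesCS1A02G297600 had 45.9, 46.5 and 39.2 TPM in 2N, against 13.3, 17.9 and 12.8 TPM in 0N (log2 fold change 1.67 ± 0.14, adjusted p = 2.6e-06). For TraesCS1D02G293600 the values were 51.3, 53.8 and 46.8 TPM in 2N and 16.6, 21.0 and 20.5 TPM in 0N (log2 fold change 1.48 ± 0.11, adjusted p = 7.1e-07). The 2 groups stood far apart in all 3.

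Not every PYL4-like gene followed. On group 2, TraesCS2A02G089400 rose, with 24.4, 26.2 and 32.2 TPM in 2N and 19.3, 20.2 and 21.2 TPM in 0N (log2 fold change 0.55 ± 0.11, adjusted p = 0.0039). Its counterparts TraesCS2B02G105300 (58.5 ± 7.15 TPM in 2N and 65.0 ± 3.37 TPM in 0N) and TraesCS2D02G087500 (57.0 ± 5.79 and 57.3 ± 4.09 TPM, SD, n = 3 each) had log2 fold changes of -0.05 and 0.09 and did not pass. The 2 PYL4-like genes of group 3 had log2 fold changes of 0.48 ± 0.18 and 0.07 ± 0.20 (SE) and did not pass either. Whether the fold changes differ between these chromosome groups was not tested.

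Receptors with other best matches gave log2 fold changes between 0.07 and 0.30, and 0 of 4 tested passed. These were the 3 genes similar to rice PYL5 and the 1 similar to Arabidopsis PYL5. The closest to the threshold was the rice PYL5-like TraesCS1D02G126900, with 14.1, 16.6 and 16.6 TPM in 2N and 13.8, 13.4 and 14.0 TPM in 0N (log2 fold change 0.30 ± 0.10, adjusted p = 0.061 by edgeR), which passed when 2N replicate 1 was left out (adjusted p = 0.041). The gene similar to rice PYL3, TraesCS7D02G328000, averaged 0.027 TPM in both groups and was not tested.

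**Figure D3:**
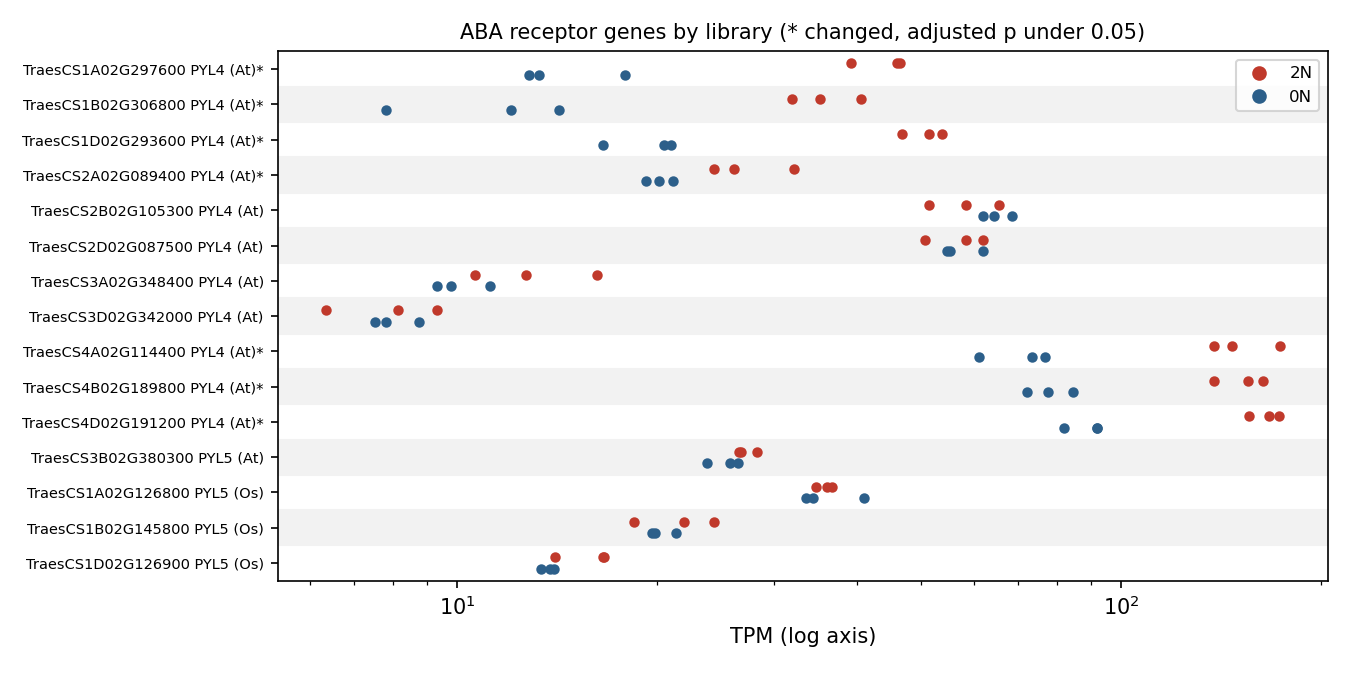
TPM (log axis) of each of the 15 tested receptor genes in each library, 2N above 0N in each row, with the best-matching entry (At, Arabidopsis; Os, rice) beside the gene. Stars mark the 7 genes that rose, all PYL4-like, in which the 3 points of 2N lie right of those of 0N.

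Phosphatases similar to rice PP2C9, a member of clade A, showed the clearest falls. TraesCS3A02G362200 had 2.81, 4.36 and 3.86 TPM in 2N, against 9.18, 6.94 and 8.01 TPM in 0N (log2 fold change -1.02 ± 0.15, adjusted p = 0.0003). TraesCS3B02G394600 had 2.88, 3.21 and 3.25 TPM in 2N and 7.66, 5.83 and 6.66 TPM in 0N (log2 fold change -0.99 ± 0.13, adjusted p = 9.4e-05). The copy on 3D, TraesCS3D02G355900, had 3.23, 4.79 and 4.75 TPM in 2N and 7.69, 5.99 and 7.67 TPM in 0N (log2 fold change -0.63 ± 0.16, adjusted p = 0.014). In none of the 3 genes did the groups overlap. The call of the 3D copy was lost when 0N replicate 1 or 3 or 2N replicate 1 was left out (adjusted p = 0.057, 0.051 and 0.064).

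Genes similar to rice PP2C50, listed in UniProt as ABI1-like protein 3, fell in 3 of 6 tested cases, with a further gene too low to test. TraesCS3B02G277900 had 1.87, 2.35 and 2.12 TPM in 2N and 4.40, 3.44 and 4.77 TPM in 0N (log2 fold change -0.88 ± 0.17, adjusted p = 0.002). TraesCS1A02G358600 had 5.73, 7.68 and 6.43 TPM in 2N and 10.1, 11.2 and 9.57 TPM in 0N (log2 fold change -0.53 ± 0.14, adjusted p = 0.015). TraesCS1D02G363500 had 2.24, 2.07 and 1.91 TPM in 2N and 3.38, 3.34 and 3.16 TPM in 0N (log2 fold change -0.57 ± 0.16, adjusted p = 0.025). The 1B copy TraesCS1B02G375100, with 4.47, 4.56 and 4.66 TPM in 2N and 7.35, 6.22 and 5.88 TPM in 0N, was the phosphatase closest to the threshold without passing (log2 fold change -0.40 ± 0.13, adjusted p = 0.057 by edgeR). In all 4, each 2N library was below each 0N library. Of these calls, that of the 1A gene was lost without 0N replicate 2 or 2N replicate 1 or 3 (adjusted p = 0.059, 0.076 and 0.060), and that of the 1D gene without 0N replicate 1 or 2, without 2N replicate 2 or 3 (adjusted p = 0.063, 0.063, 0.054 and 0.10) and with DESeq2 (adjusted p = 0.11). The 1B gene passed in 5 of 14 alternative fits, among them the one without 0N replicate 3 (adjusted p = 0.045), and its adjusted p ranged from 0.019 to 0.21.

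Of the 3 genes similar to rice PP2C6, named ABI1-like protein 1 in UniProt, TraesCS3A02G209200 fell, with 4.63, 3.77 and 4.32 TPM in 2N and 7.61, 5.93 and 5.68 TPM in 0N (log2 fold change -0.49 ± 0.13, adjusted p = 0.018). Its groups did not overlap, and its call was lost when 0N replicate 1 or 2N replicate 2 or 3 was left out (adjusted p = 0.093, 0.062 and 0.052). The 3B and 3D copies had log2 fold changes of -0.16 ± 0.15 and -0.37 ± 0.14 and did not pass. The PP2C30-like TraesCS4B02G210100 had the largest fold change of the step and some of the lowest levels, 0.25, 0.24 and 0.53 TPM in 2N and 1.35, 0.81 and 0.74 TPM in 0N (log2 fold change -1.38 ± 0.39, adjusted p = 0.025). It rested on 6, 6 and 13 counts in 2N and 30, 19 and 17 in 0N, passed the filter through its 0N counts alone, and lost its call when 0N replicate 1 or 2N replicate 1 or 2 was left out (adjusted p = 0.14, 0.098 and 0.077) and with DESeq2 (adjusted p = 0.065).

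The rule also took in 3 genes by number alone. Their best match is Arabidopsis PP2C9, listed in UniProt as a phytochrome-associated phosphatase and not among the clade A phosphatases of that species. They were the most abundant of the step and held 55.5%, 56.0% and 55.3% of its TPM in 2N and 47.8%, 49.8% and 50.8% in 0N. TraesCS2A02G339900 had 17.5, 20.0 and 18.2 TPM in 2N and 25.57, 23.04 and 24.98 TPM in 0N (log2 fold change -0.30 ± 0.09, adjusted p = 0.042). TraesCS2D02G317400 had 17.9, 19.4 and 18.3 TPM in 2N and 26.5, 21.7 and 25.1 TPM in 0N (log2 fold change -0.29 ± 0.09, adjusted p = 0.047). TraesCS2B02G337800, with 16.7, 19.0 and 18.6 TPM in 2N and 21.5, 21.9 and 22.7 TPM in 0N, did not pass (log2 fold change -0.17 ± 0.09, adjusted p = 0.25). Each 2N library was below each 0N library in all 3, but both calls were close to the threshold. The call of the 2A gene was lost in 7 and that of the 2D gene in 8 of the 14 alternative fits. Both were lost with DESeq2 (adjusted p = 0.11 for each), with no filter (0.062 for the 2A gene and 0.063 for the 2D gene) and in most fits that left out a library: for the 2A gene without 0N replicate 1 or 3 or 2N replicate 1 or 3 (adjusted p = 0.11, 0.091, 0.16 and 0.14), for the 2D gene without 0N replicate 1 or 3 or any of the 2N replicates (adjusted p = 0.15, 0.11, 0.15, 0.054 and 0.14).

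Without these 3 genes, 8 phosphatases fell and 0 rose. Their summed level was then 41.8, 45.8 and 44.5 TPM in 2N and 80.4, 67.1 and 70.5 TPM in 0N, and the receptor sum was 21.1, 18.2 and 19.8 times theirs in 2N and 6.36, 8.13 and 7.96 times in 0N. Removing the 3 genes thus left the separation of the groups in place. The fold between the groups was wider in the remaining sum (44.1 ± 2.03 TPM in 2N and 72.6 ± 6.94 TPM in 0N, SD, n = 3).

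All 19 tested phosphatases had a log2 fold change below 0, as did 49.3% of all tested genes. All 19 were also below 0 with DESeq2, where 27060 of all 54313 tested genes were. The same held with library totals (34179 genes below 0) and with TPM at a pseudocount of 0.1 (34678 genes), settings in which most genes were below 0. Without 0N replicate 1, 17 of 19 phosphatases were below 0, and without 2N replicate 1, 18 of 20. Over all tested genes, 28311 of 55276 and 27558 of 55487 were below 0 in these fits. In 14 of the 19 the groups did not overlap in CPM, a pattern seen in 32.4% of all tested genes. The 14 members that did not reach the count minimum averaged 0 to 0.288 TPM over all libraries. Their mean TPM was lower in 2N for 8 of them, higher for 3 and equal for 3, 2 of which were at 0 in every library. Among these were all genes similar to rice PP2C51, PP2C53 and PP2C37, and the 1 similar to Arabidopsis PP2C37, which acts in the ABA response of seeds. With no filter, 27 of the 31 members with any count had a log2 fold change below 0, and 11 fell. Of all 78172 genes in that fit, 38586 were below 0 and 4683 fell.

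**Figure D4:**
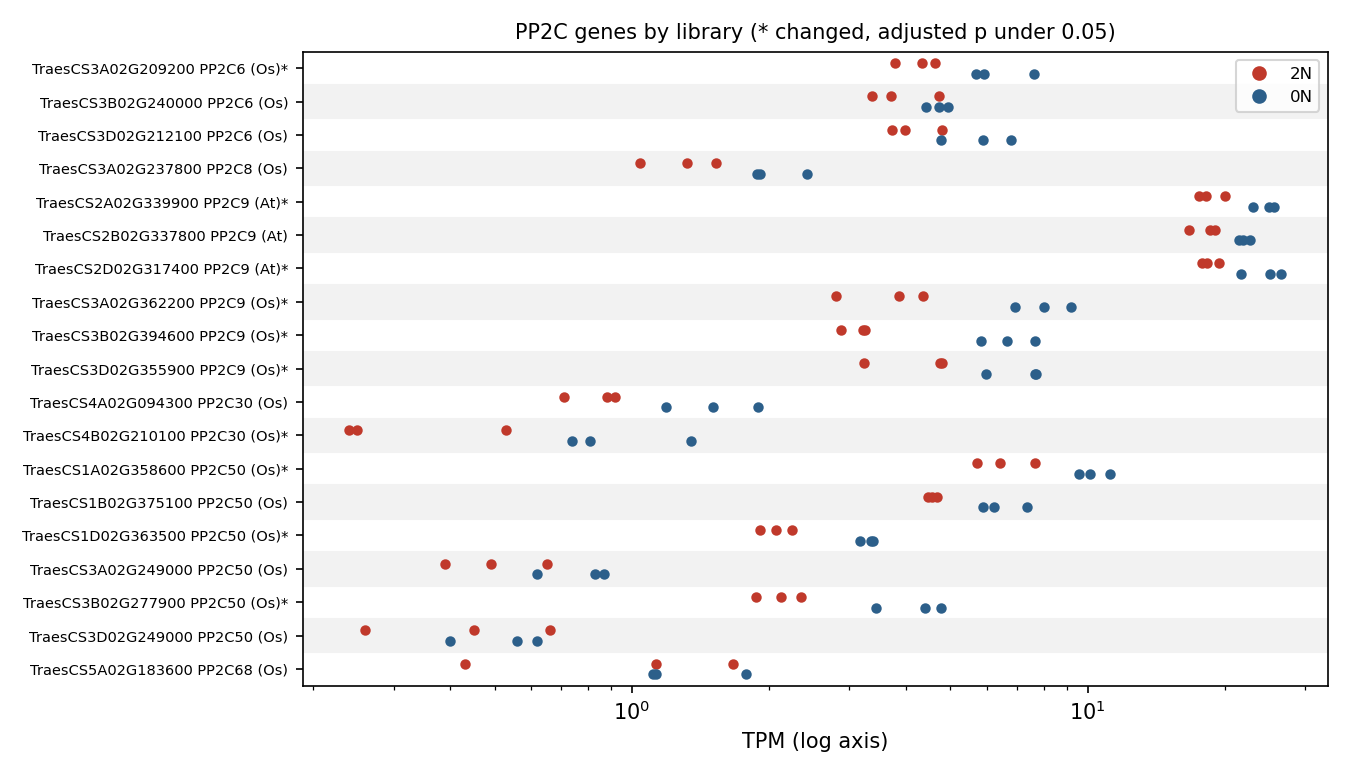
TPM (log axis) of each of the 19 tested phosphatase genes in each library, 2N above 0N in each row, with the best-matching entry beside the gene. Stars mark the 10 genes that fell. The Arabidopsis PP2C9-like genes lie near 20 TPM and the other genes below 12 TPM.

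Reads can be divided wrongly among the near-identical A, B and D copies of a hexaploid genome, and 63 of the 94 members had counts that were not whole (tolerance 1e-06). Counts were therefore also summed over genes with the same best match on the same chromosome group, across the whole table, and fitted again. Genes with different best matches stayed in separate groups, so reads divided between such genes were not brought together. The SAPK4-like and SAPK7-like sums of group 2, for example, were not whole (1227.73 and 1216.27 counts in 2N replicate 1). Of 28826 such copy groups, 7.97% rose and 8.08% fell. The 8 tested copy groups of phosphatases all fell, as did 1 of 10 of kinases and 0 of 6 of ABI5-like factors, while 2 of 6 receptor groups rose. Of the phosphatase copy groups, 4 fell and 0 rose with DESeq2, against 1939 falls among all 28826 copy groups. Of 13 phosphatase copy groups with any count, only those 8 were tested.

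The 4 phosphatase groups that passed in every setting tried were the rice PP2C9-like genes (8.92, 12.4 and 11.9 TPM in 2N and 24.5, 18.8 and 22.3 TPM in 0N), the PP2C30-like genes and the PP2C50-like genes of groups 1 and 3. Their log2 fold changes were -0.89 ± 0.12, -1.04 ± 0.24, -0.49 ± 0.10 and -0.72 ± 0.15 (SE), with adjusted p from edgeR of 0.00034, 0.0096, 0.0039 and 0.0064. The PP2C6-, PP2C8- and PP2C68-like groups and that of the phytochrome-associated phosphatase had adjusted p between 0.026 and 0.045. Without 0N replicate 1, all 4 of these lost their call (adjusted p = 0.13, 0.12, 0.20 and 0.10). Without 2N replicate 1 or 3, 5 groups fell, against 1705 of 29388 and 1616 of 29370 copy groups over the whole table.

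Both receptor groups that rose were PYL4-like. The group 1 genes had 129, 136 and 127 TPM in 2N and 37.7, 53.2 and 45.4 TPM in 0N (log2 fold change 1.59 ± 0.12), and the group 4 genes 511, 432 and 470 TPM in 2N and 215, 243 and 254 TPM in 0N (log2 fold change 1.13 ± 0.10). Both passed in every setting tried, with adjusted p of at most 0.00031. The PYL4-like genes of group 2, at 143 ± 16.7 TPM in 2N and 143 ± 5.01 TPM in 0N (SD, n = 3), did not pass (adjusted p = 0.45 by edgeR).

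SnRK2 kinases made up a broad set of expressed genes, of which 3 fell. TraesCS2A02G163800, similar to rice SAPK2, had 27.2, 34.0 and 30.8 TPM in 2N, against 43.9, 41.2 and 42.1 TPM in 0N (log2 fold change -0.47 ± 0.11, adjusted p = 0.0078). The SAPK7-like TraesCS2B02G320500 had 14.1, 15.3 and 14.0 TPM in 2N and 20.8, 19.1 and 20.6 TPM in 0N (log2 fold change -0.38 ± 0.09, adjusted p = 0.011), but its adjusted p was 0.057 without 2N replicate 3. The SAPK10-like TraesCS4D02G078100 had 1.49, 1.56 and 1.90 TPM in 2N and 3.47, 2.28 and 4.0 TPM in 0N (log2 fold change -0.90 ± 0.21, adjusted p = 0.0086). The groups did not overlap in any of the 3 genes.

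The remaining copies of these kinases had fold changes of the same sign without passing. SAPK2-like TraesCS2B02G189600, the most abundant kinase gene, had 61.0, 82.7 and 69.9 TPM in 2N and 89.4, 83.3 and 77.4 TPM in 0N, with overlapping groups (log2 fold change -0.13 ± 0.11, adjusted p = 0.52 by edgeR). TraesCS2D02G170700 had 35.3, 41.3 and 42.9 TPM in 2N and 48.9, 46.5 and 46.1 TPM in 0N (log2 fold change -0.22 ± 0.10, adjusted p = 0.15 by edgeR). SAPK10-like TraesCS4A02G235600 was just outside the threshold, with 1.00, 1.33 and 0.83 TPM in 2N and 1.77, 1.97 and 1.77 TPM in 0N (log2 fold change -0.71 ± 0.23, adjusted p = 0.052 by edgeR). It passed in 6 of 14 alternative fits, among them the one without 2N replicate 2 (adjusted p = 0.021), and its adjusted p ranged from 0.021 to 0.20. Summed over the 3 SAPK10-like genes of group 4, the fall passed (log2 fold change -0.59 ± 0.15, adjusted p = 0.017). That call was lost when 0N replicate 3 or 2N replicate 1 or 3 was left out (adjusted p = 0.068, 0.074 and 0.060).

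In rice, SAPK8, SAPK9 and SAPK10 are the members activated by ABA, while the whole family answers osmotic stress. The genes similar to these 3 kinases summed to 113, 119 and 114 TPM in 2N and 127, 111 and 125 TPM in 0N, with overlapping groups. The 3 SAPK8-like genes had log2 fold changes of 0.08 to 0.21 and the 3 SAPK9-like genes of -0.15 to 0.06, and 0 of these 6 passed. The genes similar to SAPK4 and SAPK7 summed to 165, 173 and 162 TPM in 2N and 203, 186 and 186 TPM in 0N, and those similar to SAPK2 and SAPK3 to 201, 237 and 224 TPM in 2N and 272, 252 and 246 TPM in 0N. In TPM, both of these sums were lower in each 2N library than in each 0N library. Of the tested genes, 1 of 9 in the first and 1 of 6 in the second passed. With limma-trend on log2(TPM + 0.1), the median log2 fold change of all tested genes was -0.097. In CPM, the groups overlapped in each SAPK2-, SAPK3- and SAPK4-like copy group and lay apart in the SAPK7-like one. The 3 untested kinases were SAPK4-like genes of group 1 at 0.047 to 0.295 TPM.

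The number of kinases that fell depended on the scaling and the filter. It was 8 with library totals and 6 with limma-trend on log2(TPM + 0.1), settings under which the median log2 fold change of all tested genes was -0.093 and -0.097, and 5 with no filter or with the stricter one. Of all 54313 tested genes, 6208 fell with library totals and 5441 with limma-trend. Falls over all tested genes were 4683 of 78172 with no filter and 3879 of 43743 with the stricter one. 0 kinases rose in any of these fits.

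ABI5-like factors were all similar to 2 Arabidopsis bZIP proteins, AREB3 (11 genes) and EEL (5 genes), relatives of ABI5 best known from seeds. The EEL-like TraesCS4B02G175800 fell, with 1.70, 1.76 and 2.17 TPM in 2N and 3.03, 3.04 and 3.16 TPM in 0N (log2 fold change -0.61 ± 0.15, adjusted p = 0.011). Its groups were apart, and without 2N replicate 1 its adjusted p was 0.054. Another EEL-like gene, TraesCS2D02G098700, had the largest fold change but few reads, with 0.63, 0.42 and 0.67 TPM in 2N and 0.79, 1.07 and 1.94 TPM in 0N (log2 fold change -1.03 ± 0.37, adjusted p = 0.079 by edgeR). It passed in 2 of 13 alternative fits, among them the one without 0N replicate 1 (adjusted p = 0.037), and its adjusted p ranged from 0.037 to 0.36.

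The AREB3-like genes had log2 fold changes of -0.36 to 0.16, and 0 of the 10 tested passed. TraesCS4A02G128900, the most abundant, had 7.66, 7.84 and 5.65 TPM in 2N and 9.88, 7.99 and 9.62 TPM in 0N (log2 fold change -0.27 ± 0.14, adjusted p = 0.23 by edgeR). The other ABI5-like genes of group 4, on 4B and 4D, were EEL-like. Counts of the 4A gene and of the 4D gene TraesCS4D02G177700 were not whole (143.67 and 65.33 in 2N replicate 1). Whether the group 4 genes are copies of the same gene despite their best matches was not tested. TraesCS5D02G150700 had 6.16, 6.27 and 7.20 TPM in 2N and 8.40, 6.95 and 8.43 TPM in 0N, and TraesCS3B02G368300 had 4.63, 7.46 and 6.82 TPM in 2N and 9.61, 6.94 and 6.60 TPM in 0N. The groups overlapped in the last 2 genes. The gene on 2B, TraesCS2B02G523600, was at 0 in every library.

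**Figure D5:**
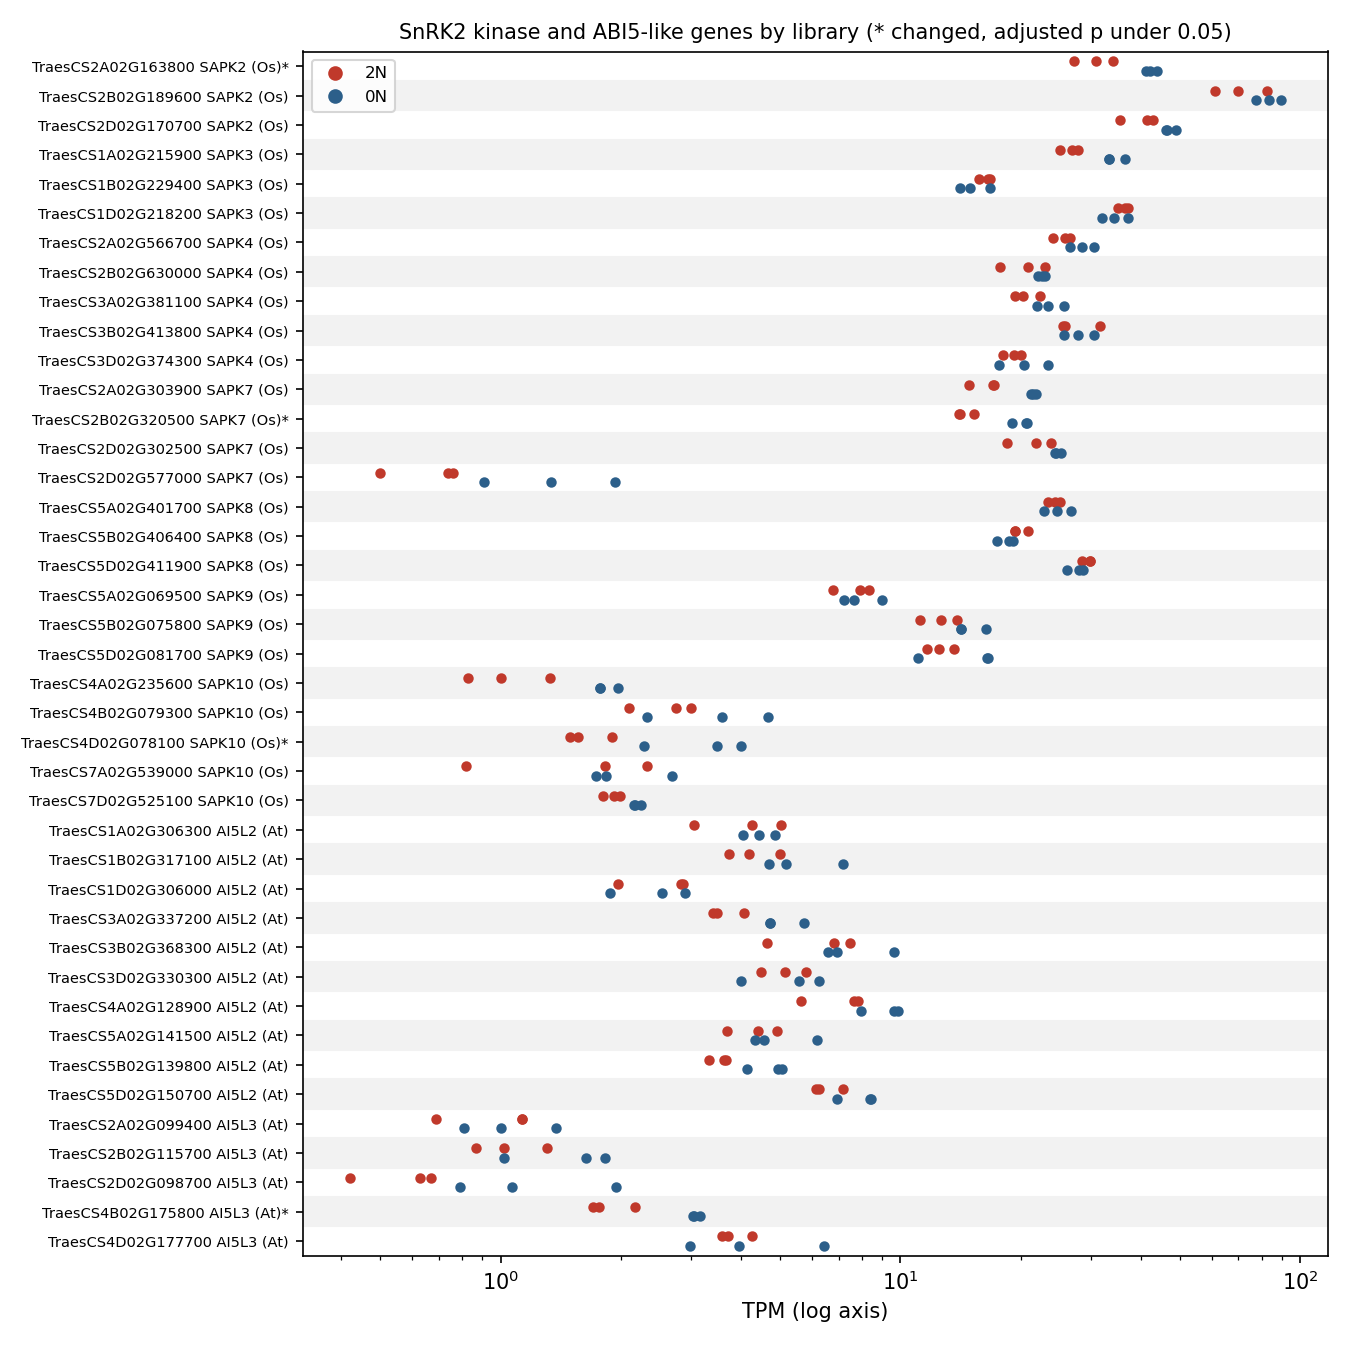
TPM (log axis) of each of the 26 tested kinase genes and, below them, the 15 tested ABI5-like genes in each library, 2N above 0N in each row, with the best-matching entry beside the gene (AI5L2 is AREB3 and AI5L3 is EEL). Stars mark the 3 kinases and the 1 factor that fell. In most rows the points of the 2 groups lie close together or overlap.

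Changed genes were spread over the subgenomes. The receptors that rose were 3 genes of the A, 2 of the B and 2 of the D genome, and the phosphatases that fell were 4, 3 and 3. The kinases that fell were 1 from each genome.

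The other genes of the pathway, read from lists of best-match names, moved in several ways. Beside the counts in these lists, 7.57% of all tested genes rose and 7.93% fell. Many list genes had too few counts to be tested. Tested were 13 of 16 ABF-type, 6 of 7 Ninja-family, 4 of 8 other ABI-type and 10 of 37 anion channel genes. Of 13 tested bZIP factors of the ABF type outside the rule, 0 rose and 4 fell, among them the bZIP46-like TraesCS7A02G170600 (5.78 ± 0.60 TPM in 2N and 9.59 ± 0.65 TPM in 0N, SD, n = 3; log2 fold change -0.62 ± 0.13) and the TRAB1-like TraesCS5B02G235600 (4.97 ± 0.59 and 7.98 ± 0.62 TPM; -0.55 ± 0.13). Of 6 Ninja-family repressors of the ABI5 group, 0 passed, and of 4 tested genes similar to ABI4, which acts with ABI5 in Arabidopsis seeds, 2 rose and 0 fell. S-type anion channels had 8 rises and 0 falls among 10 tested genes, all similar to Arabidopsis SLAH1, SLAH2 or SLAH3.

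For ABA itself, 3 genes of breakdown rose and 4 of synthesis fell among 11 tested of 23 genes. The ABA 8'-hydroxylase gene TraesCS6A02G271300, for example, had 53.1 ± 3.18 TPM in 2N and 14.0 ± 1.31 TPM in 0N (SD, n = 3). The synthesis genes that fell were zeaxanthin epoxidase copies and the NCED3-like TraesCS5B02G375900. That gene had 8, 2 and 6 counts in 2N and 14, 15 and 16 in 0N, and passed the filter through its 0N counts alone. Among 10 tested of 16 genes similar to ABA transporters, 0 rose and 3 fell. Among 8 tested of 15 C2-domain ABA-related proteins, which bring receptors to the membrane in Arabidopsis, 0 rose and 1 fell. Dehydrins, late embryogenesis abundant and similar ABA-responsive proteins had 12 rises and 8 falls among 68 tested of 159 genes.

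Other PP2C genes, which the rule left out, were mixed. Of 167 tested among 196, 21 rose, 12 fell and 134 did not pass, against 7.57% rises and 7.93% falls over all tested genes. Of the 167, 44.9% had a log2 fold change below 0, with a median of 0.023. The phosphatases of the rule had 0 rises and 10 falls. The difference between the 2 sets was not tested.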

How the data were processed

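RNA was measured in 3 2N and 3 0N root libraries. The table that the authors deposited holds, per the file headers, expected counts for each gene, which need not be whole, and TPM, whose column sums are 1000000 to 1000002. The submitters' processing notes name HISAT and Bowtie2. Build, annotation and read counter: not given in the sources used here. Since no label states strandedness, a gene's reads cannot be separated from those of an antisense neighbour. The deposited table also has 12 columns of FPKM and normalized counts that were not used. No identifier matched the reference table of 155467 genes, so no coordinates or sequences are given and chromosomes are read from the identifiers.

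Expected counts were rounded. Genes were kept by filterByExpr (minimum count 10, minimum total 15), which left 54313. After TMM scaling, 2N was tested against 0N with edgeR's quasi-likelihood test (2-sided, robust, Benjamini-Hochberg over all tested genes, threshold 0.05). Log2 fold changes are 2N over 0N, and standard errors were back-calculated from the F statistic and are approximate. Levels are deposited TPM. Summed levels have no test. Tools were edgeR 4.0.16, DESeq2 1.42.0 and limma 3.58.1 in R 4.3.3, with figures by matplotlib 3.10.9. The fit was tested on simulated counts, where the share of false calls among all calls was above the threshold of 0.05. Far fewer genes were changed there than were called here, so that share need not hold for these data. Calls close to the threshold remain the least secure.

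Members, lists and tests were chosen with earlier results of these data known. Genes were named by rule: all members past the threshold, the 3 most abundant tested members of each step, and in each step the member closest to the threshold without passing. Further genes were named after their values were seen to complete a set of copies or to illustrate a list. Alternatives were other scalings, filters and tools, a replicate block, and leaving out each library. Leaving out the 3 genes of the phytochrome-associated phosphatase and keeping only genes with whole counts were added after seeing the data.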

Additional observations from a re-analysis of the deposited data

How the results depend on the processing

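The 7 receptors that rose passed in all 14 alternative fits, and 0 receptors fell in any. Of the 21 members called, 15 to 21 stayed called in each fit. With RLE size factors, library totals and both TPM fits all 21 did. Of the phosphatases that fell, 3 passed in all 14 fits, and 0 phosphatases rose in any fit. DESeq2 gave 6 phosphatases down, 4 of their copy groups down and 5 member copy groups down in all. Library totals gave 8 kinases, 2 ABI5-like factors and 23 members down, 3 kinase and 1 ABI5-like copy groups down, and 1530 copy groups of the whole table up and 3566 down. Kinases down numbered 5 with no filter or with a minimum count of 30, and 6 with either TPM pseudocount (0.1 or 1), and ABI5-like factors 2 with no filter. Kinase copy groups down numbered 2 with the stricter filter or on TPM. On TPM, 2445 and 2489 genes and 1299 and 1327 copy groups rose, while 5441 and 5551 genes and 3115 and 3163 copy groups fell. Same-numbered libraries did not deviate together (correlations -0.0052, -0.11 and 0.026). Differently numbered ones gave correlations from -0.102 to 0.105. With 3 libraries per group, such values cannot show whether the numbers share a pairing. With the replicate number as a block, 8 phosphatases and 5 phosphatase copy groups fell (lost were TraesCS2A02G339900 and TraesCS2D02G317400, adjusted p = 0.091 and 0.10), all 7 receptors rose, and of all genes 3454 rose and 3845 fell. Among members with whole counts, 2 receptors rose, and 2 phosphatases, 0 kinases and 1 ABI5-like factor fell, in all 2 up and 3 down of 13 tested.

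Leaving out each library in turn gave 4 to 10 phosphatases, 2 to 4 kinases, 0 to 2 ABI5-like factors and 9 to 15 members down. Copy groups down were 4 to 7 for phosphatases, 0 to 3 for kinases, 0 to 1 for ABI5-like factors and 5 to 9 in all. Over the table, 2622 to 4285 genes and 1389 to 2376 copy groups rose. Falls numbered 3082 to 4100 among 55276 to 55519 tested genes and 1604 to 2227 among 29220 to 29388 tested copy groups. The summed phosphatase level (log2 ratio -0.53 in TPM) was -0.44 in CPM, and that of kinases (-0.18) was -0.085. The log2 fold change of TraesCS3B02G368300 was -0.095 with all libraries, 0.074 without 2N replicate 1 and -0.26 without 2N replicate 2. The causes were not tested. At 16208512 to 17645686 counts per library, the members too low to test averaged at most 0.295 TPM.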
